A study of Homo sapiens with 15 samples.

Results

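Class I HLA genes and the machinery that loads peptides onto their products were followed through the cardiac differentiation of human embryonic stem cells, in 9 genes of the 48777 that the tables hold. The 9 genes were the heavy chains HLA-B, HLA-C and HLA-E, the light chain B2M, the peptide transporter subunit TAP1, the immunoproteasome subunits PSMB8 and PSMB9, the transactivator NLRC5 and the inhibitory ligand CD47. They were chosen by name with earlier results of these data known, and each symbol matched 1 Ensembl gene in the count and TPM tables. The gene lists below were chosen with the same knowledge, so shares set beside those of all genes are descriptions only. Bulk RNA-seq was available for H1, an established human embryonic stem cell line, with 3 replicates on each of days 0, 4, 9, 11 and 20 and 15 libraries in all. The labels describe the replicates as biological. The cells carried no genetic change named in the labels and grew on recombinant laminins.

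Day 0 libraries came from undifferentiated cells in Nutristem medium. The labels place all of them on LN-521 with LN-221, whereas the deposited sample table lists LN-521 alone for day 0. Day 4 libraries came from the confluent culture at the point where CHIR99021, an activator of Wnt signalling, was given. Day 9 libraries followed treatment with CHIR99021 and then IWP2, an inhibitor of Wnt secretion, in RPMI with B27 without insulin. These agents are placed here as in the treatment protocol of the labels, whereas the growth protocol there sets both on earlier days. The written methods for bulk RNA-seq name a harvest on day 7 where the labels have day 9, so how long these libraries had been exposed to IWP2 rests on the labels. Cells of day 11 stood at the stage that the study calls committed cardiac progenitors (CCPs), and cells of day 20 had been kept in RPMI with B27. The cells that the study transplanted were of day 11 but carried a luciferase label. In its single-cell data of day 11, mesenchymal and fibroblast cells outnumbered those of the CCP cluster. The cells were unsorted cultures of a single line, so no level below can be assigned to a cell type. The pluripotent state of days 0 and 4 was visible in 6 marker genes, whose summed level ran from 4624 to 6651 TPM on day 0, from 5137 to 6318 on day 4, from 881 to 1273 on day 11 and from 66.6 to 108 on day 20 (TPM is a level per unit of gene length, scaled to the library). Most of the day 11 sum was LIN28A, at 838 to 1219 TPM. POU5F1 went from 931 to 1555 TPM on day 0 to 7.69 to 11.5 on day 11, and SOX2 from 695 to 1022 to 0.572 to 2.24. Summed levels of 6 cardiomyocyte markers were 9.45 to 12.4 TPM on day 0, 3700.5 to 15327 on day 11 and 3718 to 15655 on day 20.

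Class I molecules display peptides from inside the cell to CD8 T cells. The proteasome cuts proteins into peptides, TAP1 and TAP2 carry the peptides into the endoplasmic reticulum, and tapasin and other chaperones load them onto a heavy chain paired with B2M. Interferon-γ is known to exchange the constitutive proteasome subunits for PSMB8, PSMB9 and PSMB10 and to raise NLRC5, a transactivator of class I genes. HLA-E presents leader peptides of other class I chains to an inhibitory receptor of natural killer cells, and CD47 gives phagocytes an inhibitory signal through SIRPA.

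Library depth ran from 11990302 to 33469703 counts. RNA integrity numbers lay between 8.8 and 10 in 14 libraries, and replicate 2 of day 20 stood apart at 6.1. A set of 252 long autosomal coding genes had at most 2 counts summed over all libraries up to day 11. That choice kept the share counted in those libraries low, at most 18.7%. On day 20, 16.7% of the set were counted in replicate 1, 67.1% in replicate 3 and 99.6% in replicate 2. At the rate of these genes, 30.5% of the HLA-B counts, 30.8% of the NLRC5 counts, 38.7% of the PSMB9 counts and 23.2% of the TAP1 counts of that library would be background, and for PSMB8 the rate gave 25.0 counts where 15 were found. The same share was 0.911% for B2M and 1.83% for HLA-C. Tests on day 20 are therefore given with and without replicate 2, and ratios and levels of that day by library. Fewer cells of a type and less RNA per cell cannot be told apart in bulk samples.

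The heavy and light chains were abundant on every day, while the transporter, the immunoproteasome and NLRC5 were not (the plot of TPM in each library). HLA-C had the highest mean level of the 9 genes on days 0, 4, 9, 11 and 20, with 420.3 ± 48.7 TPM on day 0 and 217 ± 46.4 on day 11 (mean ± SD, n = 3). TAP1 fell from 33.5 ± 2.06 TPM on day 4 to 2.04 ± 0.511 on day 9, and PSMB8 from 14.8 ± 4.47 to 1.32 ± 0.712. B2M was at 67.6 ± 13.2 TPM on day 0, 118 ± 27.4 on day 11 and 185 ± 18.9 on day 20. Across the 5 days, 6 of the 9 genes differed (edgeR quasi-likelihood F test, Benjamini-Hochberg adjusted p under 0.05), beside 50.4% of the 24767 genes tested. These were TAP1 (adjusted p = 4.56e-08), PSMB8 (7.80e-06), PSMB9 (0.00122), B2M (0.00141), NLRC5 (0.00822) and CD47 (0.0136). HLA-B (0.0805), HLA-C (0.0823) and HLA-E (0.878) did not pass. Without replicate 2 of day 20, all 9 passed, in a fit for which the share of all genes is not given here.

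**Figure D1:**
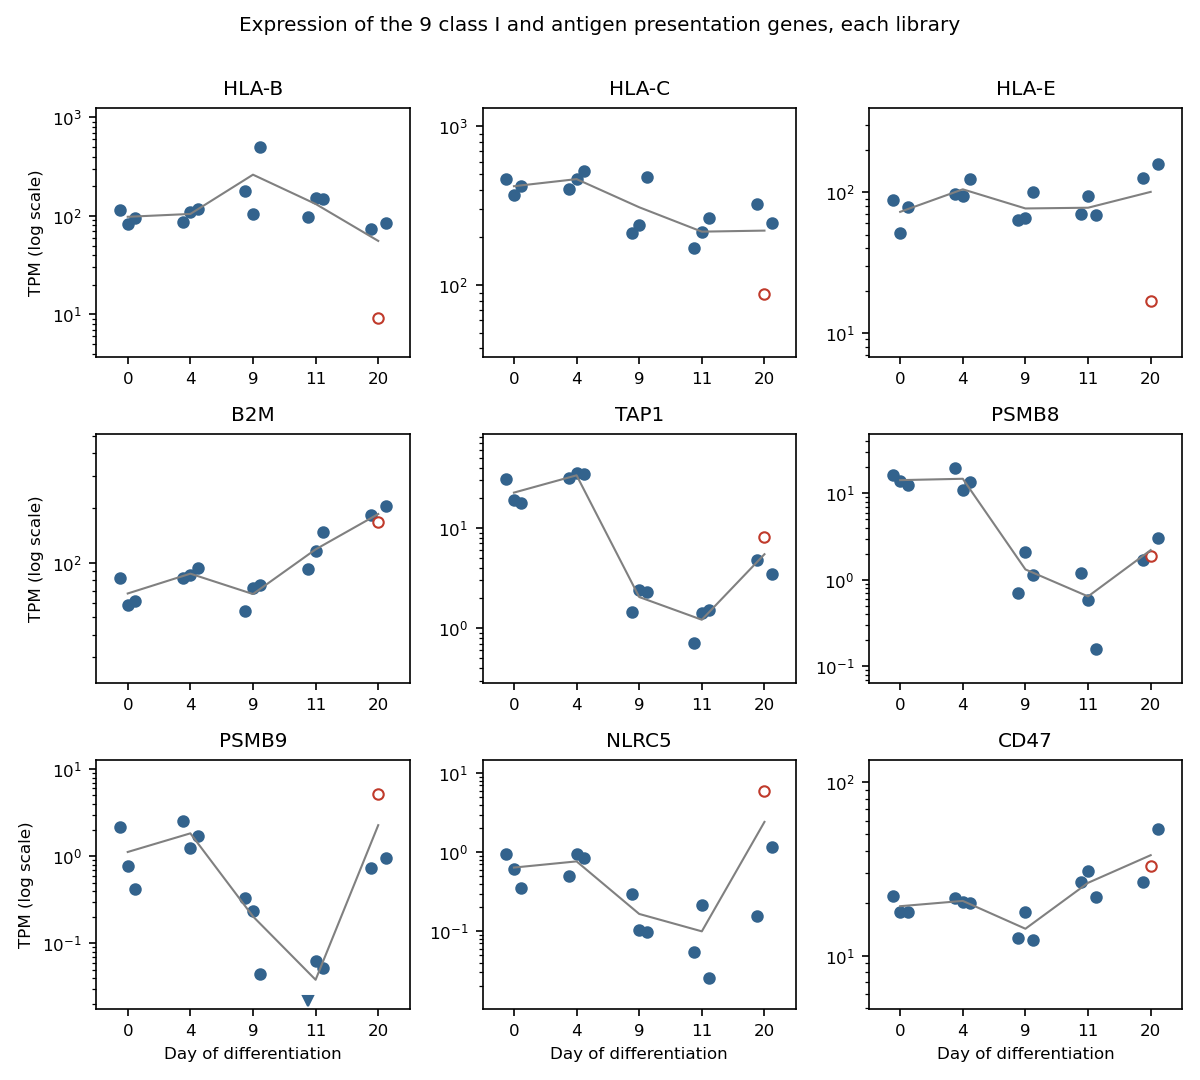
Level of each of the 9 genes in each library by day (TPM on a log axis, with a separate range per panel). Filled points are libraries, the open point is replicate 2 of day 20, the triangle marks a PSMB9 value of 0 and the line joins the means; TAP1 lies between 17.6 and 35.0 TPM on days 0 and 4 and between 0.707 and 2.40 on days 9 and 11.

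Days 0 and 4 compare the undifferentiated culture with the confluent culture before induction. None of the 9 genes passed the threshold between them, where 0% of the 20964 genes tested were higher and 0% lower. TAP1 alone had an unadjusted p under 0.05 in edgeR, and DESeq2 and limma called 0 of the 9 as well. The log2 fold changes ran up to 0.66 ± 0.49 (SE), in PSMB9. For HLA-E and TAP1 the TPM ranges of the 3 replicates stood clear of each other, a separation whose share over all genes is not given here.

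From day 4 to day 9, the interval in which the labels place CHIR99021 and IWP2, 6 of the 9 genes fell and 0 rose, beside 24.7% lower and 24.3% higher of the 21252 genes tested. TAP1, PSMB8, PSMB9 and NLRC5 fell by more than 4-fold, and CD47 and B2M by less than 1.5-fold. PSMB9 and NLRC5 entered this test through day 4 alone, so their calls were favoured in advance. The median log2 fold change of the 9 genes was -0.56 and that of all genes tested 0.01. Without replicate 3 of day 9, 8 of the 9 fell, and the median of the 9 was -1.02 where that of all genes tested was 0.02. The share of all genes that fell in that fit is not given here.

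TAP1 encodes a subunit of the transporter that moves peptides across the membrane of the endoplasmic reticulum (chr6:32845209-32853816, minus strand, GRCh38). It was at 30.8, 19.2 and 17.6 TPM on day 0, at 31.2, 35.0 and 34.5 on day 4, and at 1.46, 2.40 and 2.28 on day 9. On day 11 it was at 0.707, 1.43 and 1.50 TPM, and on day 20 at 4.78, 8.19 and 3.43. Each library of days 9 and 11 lay below each library of days 0, 4 and 20. The log2 fold change from day 4 to day 9 was -4.01 ± 0.18 (SE, adjusted p = 2.35e-06), and within the 3 sequencing lanes it ran from -4.43 to -3.75. The value for day 11 against day 0 was -4.30 ± 0.35 (adjusted p = 4.98e-05). These calls held in 15 of 15 and 14 of 14 alternatives. From day 9 to day 11 the change was -0.80 ± 0.37 (adjusted p = 0.331), and the TPM ranges overlapped.

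PSMB8 is the immunoproteasome subunit that takes the place of PSMB5 (chr6:32840717-32844679, minus strand). Its level was 16.3, 14.0 and 12.5 TPM on day 0, 19.7, 11.0 and 13.7 on day 4, and 0.706, 2.10 and 1.15 on day 9. It reached 1.19, 0.576 and 0.159 TPM on day 11, from 14, 6 and 2 counts, and 1.69, 1.91 and 3.02 on day 20. All libraries of days 9, 11 and 20 lay below those of days 0 and 4. The log2 fold change was -3.48 ± 0.37 from day 4 to day 9 (adjusted p = 0.000141) and -4.57 ± 0.54 from day 0 to day 11 (adjusted p = 0.000327). With its few counts on day 11, PSMB8 entered the test against day 0 through day 0 alone, so that value was favoured in advance.

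PSMB9, which takes the place of PSMB6, had the lowest daily mean of the 3 genes of this stretch of chromosome 6 up to day 11 (chr6:32844136-32859851, plus strand). It was at 2.16, 0.783 and 0.419 TPM on day 0, at 2.56, 1.26 and 1.69 on day 4, at 0.330, 0.238 and 0.0440 on day 9, and at 0, 0.0627 and 0.0520 on day 11. The day 11 values stood for 0, 1 and 1 counts. It was called lower on day 9 than on day 4, but its 10 counts on day 9 let it enter that test through day 4 alone. No fitted fold is given for this reason. Against 120 counts on day 4, they made a ratio per library count of 10.1% (exact 95% interval 4.74% to 19.3%, counting error only). Day 11 was too low for the test, and its 2 counts among 66889925 against 71 among 72657287 on day 0 gave a ratio of 3.06% (exact 95% interval 0.364% to 11.5%, counting error only). PSMB8 and PSMB9 share 139 exon bases on opposite strands, and PSMB8-AS1 shares 602 bases with PSMB8 and 672 with TAP1. How strand was handled in the counting is not given in the sources used here, and PSMB8-AS1 itself had at most 11 counts in any library.

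NLRC5 (chr16:56989485-57083531, plus strand) was low throughout. Its level was 0.943, 0.621 and 0.354 TPM on day 0, 0.497, 0.949 and 0.851 on day 4, 0.294, 0.103 and 0.0983 on day 9, and 0.0551, 0.218 and 0.0258 on day 11. Libraries of days 9 and 11 had between 2 and 18 counts, those of days 0 and 4 between 17 and 81. The log2 fold change was -2.21 ± 0.48 from day 4 to day 9 (adjusted p = 0.00529, or 0.0874 with all 15 libraries in 1 fit) and -2.80 ± 0.65 from day 0 to day 11 (adjusted p = 0.00904). NLRC5 entered both tests through the earlier day alone, so these values were favoured in advance.

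**Figure D2:**
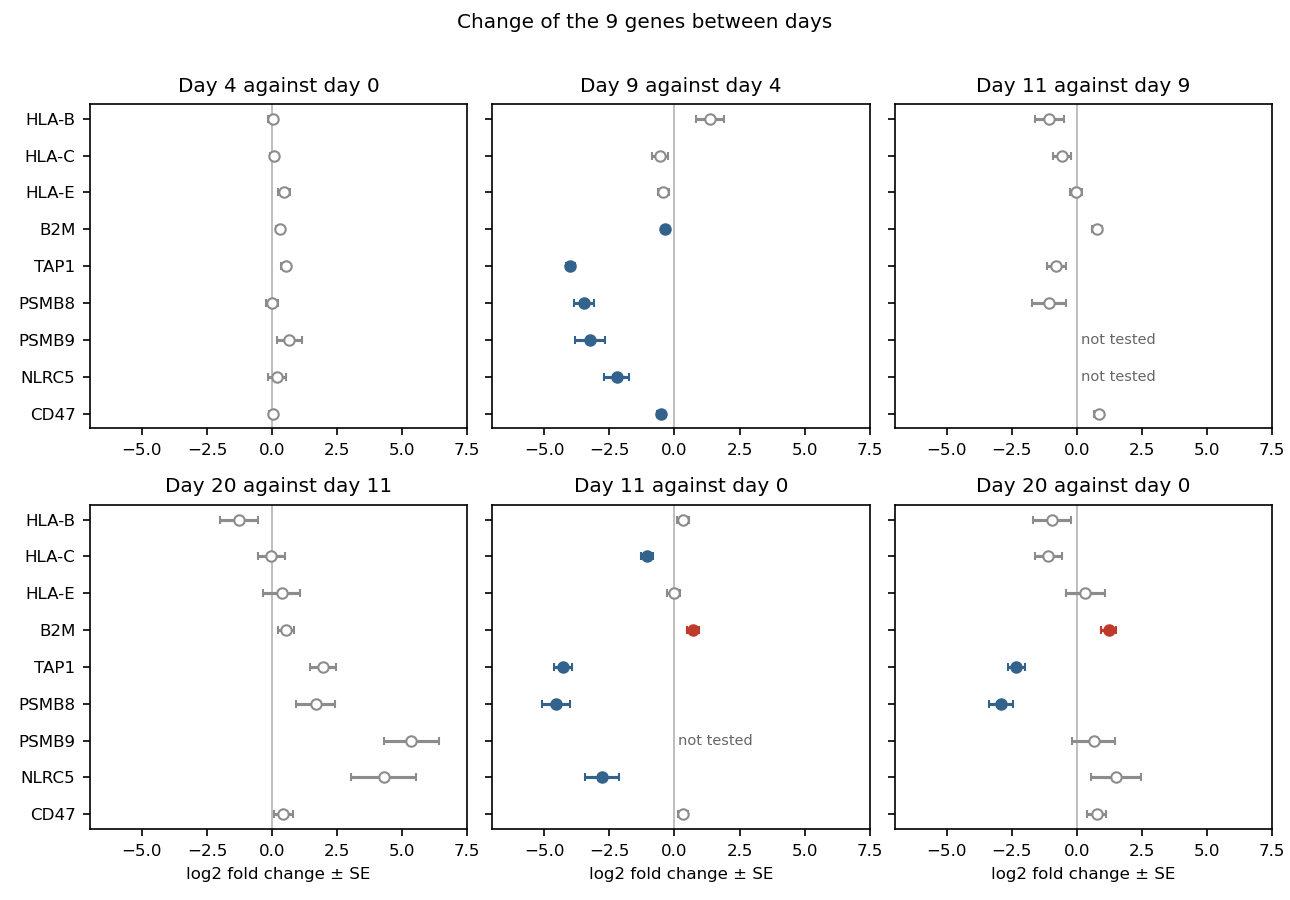
Log2 fold change of the 9 genes in 6 comparisons of days (edgeR, bars are standard errors, 3 replicates per day). Blue points were lower and red points higher at an adjusted p under 0.05, and open points did not pass; TAP1, PSMB8, PSMB9 and NLRC5 lie to the left from day 4 to day 9, and B2M to the right on days 11 and 20 against day 0. The PSMB9 value for day 9 against day 4 rests on 10 counts on day 9, and that for day 20 against day 11 on 2 counts on day 11. NLRC5 in day 9 against day 4, and NLRC5 and PSMB8 in day 11 against day 0, entered the test through the earlier day alone.

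The immunoproteasome subunits were lower on day 9 than on day 4 relative to their constitutive partners. Within a library, the ratio of PSMB8 to PSMB5 was 5.94% ± 1.27 (SD, n = 3) on day 0, 6.05% ± 1.35 on day 4, 0.512% ± 0.218 on day 9, 0.288% ± 0.220 on day 11 and 1.21% ± 0.455 on day 20 (0.689% and 1.40% in replicates 1 and 3, 1.53% in replicate 2). The ratio of PSMB9 to PSMB6 went from 0.559% ± 0.169 on day 4 to 0.0169% ± 0.0172 on day 11 and was 0.381%, 3.35% and 0.551% in replicates 1, 2 and 3 of day 20. PSMB10, the other interferon-inducible subunit, stayed between 2.07% and 3.32% of PSMB7 in the daily means and had 4.13 ± 1.22 TPM on day 0 and 5.42 ± 0.890 on day 11. Its log2 fold change was 0.08 ± 0.22 from day 4 to day 9 (adjusted p = 0.794). PSMB5 (0.06 ± 0.11) and PSMB7 (0.08 ± 0.11) did not pass either in that interval, while PSMB6 fell by 0.47 on the log2 scale (SE 0.12, adjusted p = 0.0110).

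**Figure D3:**
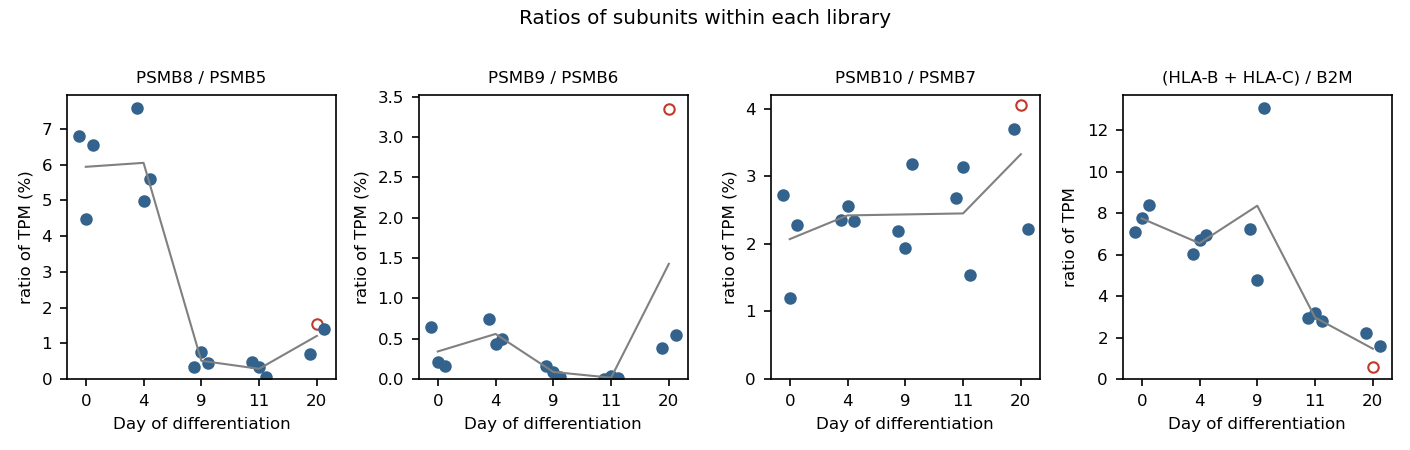
Ratio of TPM values within each library by day, for the 3 interferon-inducible proteasome subunits over their constitutive partners (%) and for the summed heavy chains HLA-B and HLA-C over B2M. Points are libraries, the open point is replicate 2 of day 20 and the line joins the means; PSMB8 to PSMB5 is 5.94% on day 0 and 0.288% on day 11, and the heavy chain ratio is 7.74 on day 0 and 2.97 on day 11.

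TAP1, PSMB8 and PSMB9 are neighbours on chromosome 6 that fell together, so the sequence before their starts is shown beside those of the more abundant B2M and HLA-C. RefSeq windows (GRCh38.p14) matched 7 of the 9 genes, all but HLA-E and NLRC5. The stretches below are the parts of the 250 bases before each start that hold no annotated UTR, read 5′ to 3′ on the strand of the gene. Capitals mark matches on either strand to TGACG (the CRE-type core), CCAAT, the ISRE (interferon-stimulated response element), the GAS element (TTCNNNGAA) or the NF-κB consensus. The stretches lie at chr15:44711324-44711508 (plus strand) for B2M, chr6:31272106-31272342 (minus) for HLA-C, chr6:32853817-32853954 (minus) for TAP1, chr6:32844680-32844835 (minus) for PSMB8 and chr6:32853942-32854191 (plus) for PSMB9. TAP1 and PSMB9 point away from each other, and their windows overlap.
B2M: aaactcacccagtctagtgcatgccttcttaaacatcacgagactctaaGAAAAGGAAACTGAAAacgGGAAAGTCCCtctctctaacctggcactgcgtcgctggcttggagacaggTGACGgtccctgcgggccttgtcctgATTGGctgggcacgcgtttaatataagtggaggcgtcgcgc
HLA-C: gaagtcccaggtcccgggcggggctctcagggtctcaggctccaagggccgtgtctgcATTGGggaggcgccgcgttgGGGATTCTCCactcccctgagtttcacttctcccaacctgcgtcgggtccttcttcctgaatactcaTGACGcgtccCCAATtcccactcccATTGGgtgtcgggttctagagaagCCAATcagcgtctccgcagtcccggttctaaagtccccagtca
TAP1: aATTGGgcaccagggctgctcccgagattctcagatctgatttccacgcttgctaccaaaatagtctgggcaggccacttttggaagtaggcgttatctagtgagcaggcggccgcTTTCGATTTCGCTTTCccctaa
PSMB8: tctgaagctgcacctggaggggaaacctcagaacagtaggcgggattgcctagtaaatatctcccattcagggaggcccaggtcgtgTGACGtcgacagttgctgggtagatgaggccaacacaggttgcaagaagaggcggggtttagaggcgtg
PSMB9: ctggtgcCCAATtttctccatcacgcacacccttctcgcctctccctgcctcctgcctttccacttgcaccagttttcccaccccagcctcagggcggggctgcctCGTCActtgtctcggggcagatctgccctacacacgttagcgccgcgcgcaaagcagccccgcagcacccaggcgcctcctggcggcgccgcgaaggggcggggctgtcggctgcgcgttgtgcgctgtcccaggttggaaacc
B2M held 2 overlapping ISRE matches 129 to 144 bases before the start, an NF-κB match, a TGACG and a CCAAT box. TAP1 held 2 overlapping ISRE matches 119 to 134 bases before the start, a CCAAT box and, nearer the start, an NF-κB match. HLA-C and HLA-B each held a TGACG as well as CCAAT boxes. HLA-C held 1 NF-κB match, and HLA-B overlapping NF-κB matches on both strands 167 to 177 bases before the start. Neither held a match to the ISRE pattern searched, and an ISRE that departs from that pattern would be missed. PSMB8 and PSMB9 each held a TGACG, PSMB9 also a CCAAT box in the bases it shares with the TAP1 window. Neither the printed stretch of PSMB8 nor that of PSMB9 held a match to the ISRE pattern. TAP1 and PSMB8 have a further RefSeq start each, whose window held a GAS match and no other. CD47 held a single TGACG. Of 34788 different windows of 250 bases in the table, 3.02% held the ISRE pattern, 6.57% GAS, 9.95% NF-κB, 21.2% TGACG and 32.0% CCAAT. These matches are letters in a reference sequence, and no binding was measured.

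The classical heavy chains HLA-B and HLA-C present peptides to T cells. HLA-C (chr6:31268749-31272130, minus strand) was at 469, 372 and 421 TPM on day 0, at 406, 466 and 525 on day 4, at 213, 239 and 477 on day 9, and at 172, 216 and 265 on day 11. On day 20 it was at 327, 88.3 and 247 TPM. Each day 11 library lay below each library of days 0 and 4. Day 11 against day 0 gave a log2 fold change of -1.06 ± 0.22 (adjusted p = 0.00544, or 0.0810 with all 15 libraries in 1 fit). Day 9 against day 4 gave -0.56 ± 0.31 (adjusted p = 0.173), which became -1.02 (adjusted p = 0.000314) without replicate 3 of day 9.

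HLA-B (chr6:31353872-31367067, minus strand) was at 116, 82.3 and 95.7 TPM on day 0 and at 86.2, 109 and 119 on day 4. Day 9 gave 178, 105 and 504 TPM, day 11 gave 97.8, 152 and 147, and day 20 gave 72.9, 9.23 and 85.1. Replicate 3 of day 9 stood above all other libraries, and it was also the highest library of its day for HLA-C and HLA-E. The log2 fold change from day 4 to day 9 was 1.37 ± 0.53 (adjusted p = 0.0662), which became 0.49 (adjusted p = 0.200) without replicate 3 and 1.79 (adjusted p = 0.00411) without replicate 2 of day 9. Within lanes it ran from -0.22 to 2.53. The ratio of HLA-B to HLA-C was 0.232 ± 0.0135 on day 0, 0.224 ± 0.0114 on day 4, 0.778 ± 0.311 on day 9, 0.610 ± 0.0834 on day 11 and 0.224 ± 0.120 on day 20 (0.223 and 0.345 in replicates 1 and 3, 0.104 in replicate 2). The day 11 ratio lay above that of days 0 and 4 by more than the SDs. HLA genes are near-identical over long stretches and the handling of reads with several matches is not given in the sources used here, so the split between them is uncertain. Summed leukocyte markers in replicate 3 of day 9 were 5.84 TPM (4.01 and 4.32 in the others), and 8 endothelial markers summed to 744 TPM there against 355 and 459.7 in the other libraries of that day. KDR, which was already at 112 to 313 TPM on days 0 and 4, made up 653 TPM of that sum, while PECAM1 and CDH5 reached at most 1.20 and 3.13 TPM on day 9. Their part in the HLA-B level was not tested.

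HLA-E (chr6:30489509-30494194, plus strand) did not pass in any of the 6 comparisons. Its level was 88.5, 51.0 and 78.1 TPM on day 0, 96.6, 93.5 and 124 on day 4, 63.8, 65.4 and 101 on day 9, and 69.9, 93.9 and 68.9 on day 11. On day 20 it was at 125, 16.9 and 159 TPM, the low value again in replicate 2. The day 11 libraries overlapped those of day 0, and the log2 fold change was -0.03 ± 0.25 (adjusted p = 0.942). From day 4 to day 9 it was -0.42 ± 0.21 (adjusted p = 0.134), or -0.67 (adjusted p = 0.00479) without replicate 3 of day 9.

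B2M, the invariant light chain without which the heavy chains do not reach the surface, was higher on days 11 and 20 than on day 0 (chr15:44711358-44718851, plus strand). It was at 82.7, 58.4 and 61.7 TPM on day 0, at 81.8, 85.8 and 93.1 on day 4, at 54.2, 72.0 and 75.1 on day 9, at 92.2, 116 and 147 on day 11 and at 182, 168 and 206 on day 20. In TPM, the libraries of day 11 lay above those of days 0 and 9, and those of day 20 above all others. In normalised counts the libraries of days 11 and 20 overlapped, and edgeR gave a log2 fold change of 0.53 ± 0.31 between these days (adjusted p = 0.448). Day 11 against day 0 gave a log2 fold change of 0.71 ± 0.22 (adjusted p = 0.0331) and day 20 against day 0 gave 1.23 ± 0.29 (adjusted p = 0.0157), or 1.41 (adjusted p = 0.00290) without replicate 2 of day 20. The first call was lost in 4 of 14 alternatives, namely without replicate 1, 2 or 3 of day 0 or without replicate 3 of day 11, with adjusted p-values from 0.0697 to 0.0997. The second was lost without replicate 1, 2 or 3 of day 0, without replicate 3 of day 20 and without the filter on low counts, with values from 0.0647 to 0.161. The small decrease from day 4 to day 9 (-0.36 ± 0.13, adjusted p = 0.0497) held in 4 of 15 alternatives, and leaving out any of 5 libraries (replicates 1, 2 and 3 of day 4 and 1 and 2 of day 9) gave adjusted p-values from 0.0731 to 0.189.

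The summed TPM of HLA-B and HLA-C over that of B2M was 7.74 ± 0.651 on day 0, 6.54 ± 0.470 on day 4, 8.35 ± 4.26 on day 9, 2.97 ± 0.192 on day 11 and 1.46 ± 0.819 on day 20 (SD, n = 3), where replicates 1 and 3 had 2.20 and 1.61 and replicate 2 had 0.579. Every library of days 11 and 20 lay below every library of days 0, 4 and 9, and the wide spread of day 9 came from replicate 3, at 13.1 against 7.21 and 4.78 in replicates 1 and 2.

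CD47 (chr3:108043091-108091862, minus strand) was at 22.2, 17.8 and 17.9 TPM on day 0, at 21.5, 20.5 and 20.1 on day 4, at 12.7, 17.9 and 12.3 on day 9, at 26.5, 30.7 and 21.7 on day 11 and at 26.7, 33.1 and 54.1 on day 20. The libraries of day 9 lay below those of days 4 and 11. The decrease from day 4 to day 9 was small (log2 fold change -0.53 ± 0.13, adjusted p = 0.0101, or 0.130 with all 15 libraries in 1 fit). Day 11 against day 0 gave 0.34 ± 0.18 (adjusted p = 0.174), and day 20 against day 0 gave 0.76 ± 0.35 (adjusted p = 0.149), or 0.96 (adjusted p = 0.0489) without replicate 2 of day 20. SIRPA, the receptor that CD47 engages, was itself counted in these cells, with a mean of 9.77 CPM (counts scaled to library size) on day 0, 29.3 on day 11 and 62.2 on day 20. Its log2 fold change was 1.59 ± 0.43 on day 11 (adjusted p = 0.0177) and 2.94 ± 0.41 on day 20 (adjusted p = 0.00220, or 2.57 without replicate 2) against day 0.

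Days 9 and 11 frame the step to the CCPs. Of the 9 genes, 7 had enough counts for the test and 0 passed in edgeR, beside 1.39% higher and 1% lower of 20679 genes. B2M (log2 fold change 0.77 ± 0.21, adjusted p = 0.107) and CD47 (0.83 ± 0.18, adjusted p = 0.0571) were the 2 genes with an unadjusted p under 0.05. Both were higher on day 11 in each of the 3 lanes, by 0.18 to 1.12 for B2M and by 0.36 to 1.11 for CD47. In normalised counts their replicates did not overlap, nor did those of TAP1, which was lower on day 11. The share of all genes without overlap is not given here. DESeq2 called B2M and CD47 (adjusted p = 0.0327 and 0.00315), as did edgeR without the filter on low counts (0.0236 and 0.0106), while limma on TPM called 0. HLA-B, HLA-C, TAP1 and PSMB8 had values of -1.06 ± 0.55, -0.57 ± 0.34, -0.80 ± 0.37 and -1.07 ± 0.66. Without replicate 3 of day 9 the HLA-B value was -0.18 and the HLA-C value -0.10.

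Against day 0, day 11 cells had 4 of the 8 genes tested lower and 1 higher, beside 19.8% lower and 20.3% higher of 21229 genes. The lower genes were TAP1, PSMB8, NLRC5 and HLA-C and the higher gene was B2M. PSMB8 and NLRC5 entered this test through day 0 alone, so their calls were favoured in advance. PSMB9 was too low on day 11 for the test. HLA-B (0.32 ± 0.23, adjusted p = 0.288), HLA-E and CD47 did not pass.

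On day 20, TAP1 and PSMB9 were above day 11 in every library, and NLRC5 in 2 of 3 lay above the highest day 11 library. How many of all genes were separated in this way is not given here. TAP1 gave a log2 fold change of 1.97 ± 0.50 (adjusted p = 0.0962), or 1.76 (0.0937) without replicate 2. PSMB9 had 2 counts over the 3 libraries of day 11 and entered the test through day 20, so its fitted fold is not given. Its 89 counts on day 20 made a ratio per library count of 48.9 (exact 95% interval 13.1 to 409.7), and the 27 counts left without replicate 2 a ratio of 20.0 (5.02 to 173), for counting error only. PSMB9 was at 0.734, 5.15 and 0.950 TPM and NLRC5 at 0.156, 5.95 and 1.16, the highest value of each in replicate 2. NLRC5 gave 4.29 ± 1.26 (adjusted p = 0.138), or 2.76 (0.219) without that library. In edgeR 0 of the 9 genes passed, beside 1.12% higher and 0.435% lower of 21398 genes, and 3 (TAP1, PSMB9 and NLRC5) had an unadjusted p under 0.05. DESeq2 and a single fit of all 15 libraries each called these 3, where the PSMB9 call has the same limit, and limma called 0. HLA-B went the other way, at -1.26 ± 0.74 (adjusted p = 0.448), or -0.73 (0.182) without replicate 2.

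Against day 0, day 20 cells had TAP1 (-2.34 ± 0.33, adjusted p = 0.00220) and PSMB8 (-2.91 ± 0.47, adjusted p = 0.00348) lower and B2M higher, so that 2 of 9 were lower and 1 higher, beside 11.3% and 16.1% of 21988 genes. Without replicate 2 of day 20, TAP1 gave -2.55 and PSMB8 -2.71. PSMB9 changed sign without that library, from 0.65 ± 0.82 to -0.50, and NLRC5 from 1.50 ± 0.96 to -0.05. HLA-C gave -1.10 ± 0.53 (adjusted p = 0.157), or -0.68 (0.0608) without it, and HLA-B gave -0.95 ± 0.72 (adjusted p = 0.372), or -0.43 (0.188). Marker sums also differed among the day 20 libraries: 8 endoderm markers summed to 673 TPM in replicate 2 against 17356 and 20317 in replicates 1 and 3, and 9 mesenchymal markers to 1236 against 3221 and 24494. Leukocyte markers, 9 genes, summed to 55.8 TPM in replicate 2, where the rate of the silent genes would give 37.2% of their counts, and to 8.92 and 9.97 in the others, and to between 2.26 and 8.21 on the earlier days, where PTPRC, which defines leukocytes, had 0 counts on day 11. For the endoderm and mesenchymal markers that share was 2.40% and 1.54%. The part of these markers in the day 20 values was not tested.

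The rest of the class I pathway was read from 14 further genes, and most fell with TAP1 and PSMB8 from day 4 to day 9. In that interval 10 of 14 tested (71.4%) were lower and 0 higher, beside 24.7% and 24.3% of all genes, with a median log2 fold change of -0.91 where the median of all genes was 0.01. TAP2, the partner of TAP1, gave -2.90 ± 0.33 (adjusted p = 0.000200), and TAPBP, the tapasin that bridges TAP to the heavy chain, gave -1.73 ± 0.14 (adjusted p = 3.86e-05). The nonclassical heavy chains HLA-F and HLA-G fell as well, from means of 4.42 and 3.89 CPM on day 4 to 0.486 and 0.385 CPM on day 9. At these day 9 levels both could enter the test through day 4 alone, so no fitted fold is given. TAPBPL, ERAP1, which trims peptides, PSME3 and the chaperones CALR, CANX and PDIA3 were the other lower genes. Between days 0 and 11 there were 7 of 13 lower and 1 higher, beside 19.8% and 20.3% of all genes. The higher gene was PSME1, a subunit of the interferon-inducible proteasome activator (0.83 ± 0.20, adjusted p = 0.0101). TAPBP was at 57.7 ± 16.6 TPM on day 0, 21.0 ± 0.849 on day 11 and 63.3, 30.9 and 59.1 in replicates 1, 2 and 3 of day 20, where it did not pass against day 0 (adjusted p = 0.552, or 0.921 without replicate 2). On day 20 against day 0, 3 of 14 were lower and 2 higher, beside 11.3% and 16.1% of all genes, or 6 and 2 without replicate 2 of day 20. The higher genes were ERAP2, a further peptide trimmer, and PSME1 (1.32 ± 0.39, adjusted p = 0.0366, or 1.63 without replicate 2). ERAP2 had 8, 2 and 5 counts on day 0 and 81, 143 and 83 on day 20. It entered the test through day 20 alone, so no fitted fold is given.

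Constitutive proteasome genes moved less: 10 of 15 (66.7%) were lower and 1 higher from day 4 to day 9, beside 24.7% and 24.3% of all genes, with a median of -0.43 and the largest decrease in PSMA2 (-0.74 ± 0.19). By day 11, 1 of 15 was lower than on day 0 and 0 higher, beside 19.8% and 20.3% of all genes.

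In the interval in which TAP1, PSMB8, PSMB9 and NLRC5 fell, 0 genes of the lists of class I regulators and interferon signalling passed as lower. Of 15 class I regulators, 7 (46.7%) were higher from day 4 to day 9, beside 24.3% of all genes (median 0.31), among them IRF1, an interferon-induced activator (1.06 ± 0.18, adjusted p = 0.00144), RFXAP (1.02 ± 0.21) and NFKB1 (0.93 ± 0.16). This list mixes activators with the repressive Polycomb genes EZH2, EED and SUZ12. Of these, EED was among the 7 higher (0.44 ± 0.14, adjusted p = 0.0326), and EZH2 and SUZ12 did not pass. NLRC5 was counted with the 9 genes and not in this list. Of 11 interferon signalling genes, 4 (36.4%) were higher (median 0.29), and without replicate 3 of day 9, 5 were higher and 1, IFNGR1, was lower. SOCS3, an inhibitor of the pathway, rose most (4.33 ± 0.16, adjusted p = 8.25e-07), followed by the kinase JAK2 (1.05 ± 0.14), SOCS1 (0.80 ± 0.19) and the receptor chain IFNGR2 (0.63 ± 0.13). Compared with day 0, day 11 had 6 of 11 signalling genes (54.5%) higher, beside 20.3% of all genes, and 4 of 15 regulators (26.7%), a share near that of all genes. No gene of either list was lower.

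Interferon response genes did not move as 1 group. Between days 4 and 9, 3 of 14 tested (21.4%) were higher and 4 (28.6%) lower, shares near the 24.3% and 24.7% of all genes. IFIT5 (1.04 ± 0.19), IFIT1 (0.97 ± 0.24) and IFI27 (1.14 ± 0.29) rose, and MX1, OAS3, IFITM1 (-1.76 ± 0.15) and IFI6 (-1.54 ± 0.39) fell. MX1 went from a mean of 7.17 to 0.526 CPM and OAS3 from 3.84 to 0.552 CPM. Both could enter the test through day 4 alone, so no fitted fold is given for them. From day 9 to day 11, 2 of 16 were higher, GBP2 and IFIT1 (1.45 ± 0.26, adjusted p = 0.0344), beside 1.39% of all genes, and 0 without replicate 3 of day 9. GBP2 had 3, 13 and 4 counts on day 9 and 52, 74 and 40 on day 11. It entered this test through day 11 alone, so no fitted fold is given. On day 20 against day 0, 6 of 18 were higher and 0 lower (7 and 1 without replicate 2 of day 20), beside 16.1% and 11.3% of all genes. Of these 6, GBP2, GBP1 and IFIT2 had 3, 2 and 4 counts over the 3 libraries of day 0 and entered the test through day 20 alone, so they had to differ and no fitted fold is given. Without replicate 2, which has the background described above, GBP2 had 866 counts on day 20, a ratio per library count of 464 (exact 95% interval 158 to 2252), GBP1 had 82 (65.8, interval 17.7 to 553) and IFIT2 had 144 (57.8, interval 22.1 to 215), for counting error only. IFIT1, counted on every day, gave 4.49 ± 0.36 (adjusted p = 0.000281), or 4.68 without replicate 2. It had a mean of 2.91 CPM on day 0, 24.6 on day 11 and 58.6 on day 20.

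**Figure D4:**
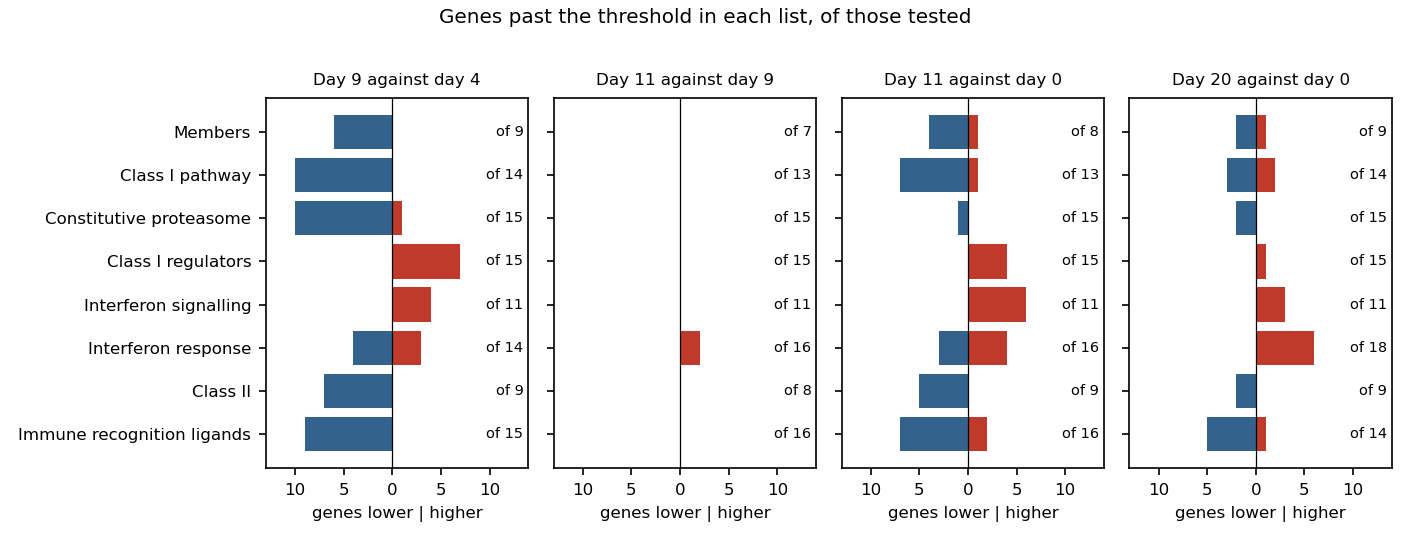
Number of genes lower (blue, to the left) and higher (red, to the right) at an adjusted p under 0.05 in 4 comparisons of days, for the 9 genes (Members) and the 7 related lists, with the number tested at the right. From day 4 to day 9 the class I pathway has 10 of 14 lower and 0 higher, and the regulators 0 lower and 7 of 15 higher.

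Class II genes, which present peptides taken up from outside the cell, were detected at low levels in the pluripotent culture. From day 4 to day 9, 7 of 9 tested (77.8%) were lower and 0 higher, beside 24.7% and 24.3% of all genes. HLA-DRA went from a mean of 12.5 to 0.175 CPM and HLA-DQB1 from 11.6 to 0.706 CPM. At these day 9 levels both could enter the test through day 4 alone, so no fitted fold is given. CIITA, the class II transactivator, did not pass in any comparison, with 0.13 ± 0.28 in this interval. Relative to day 0, 5 of 9 were lower on day 11 and 0 higher, beside 19.8% and 20.3% of all genes.

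Of other ligands and inhibitors read by natural killer cells, T cells and complement, 9 of 15 tested (60.0%) were lower from day 4 to day 9 and 0 higher, beside 24.7% and 24.3% of all genes. Without replicate 3 of day 9, 11 of 16 were lower and 1, CD274, the ligand of PD-1, was higher. CD274 was too low for the test with that replicate included. It had 9, 5 and 5 counts on day 4 and 13 and 14 in the day 9 libraries left. It entered that fit through day 9 alone, so its call was favoured in advance. The share of all genes in that fit is not given here. The decreases were led by MICB, a ligand of the activating receptor NKG2D (-3.53 ± 0.18, adjusted p = 4.26e-06), CD24 (-1.39 ± 0.15), MICA (-1.28 ± 0.16) and CALR (-1.26 ± 0.37). On day 11 against day 0, 7 of 16 were lower and 2 higher, beside 19.8% and 20.3% of all genes, the latter SIRPA and CD274. CD274 had a mean of 0.229 CPM on day 0 and 1.91 CPM on day 11. It entered this test through day 11 alone, so no fitted fold is given. MICB stood at 28.7 CPM on day 0 and 2.21 CPM on day 11.

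Across the 15 libraries, log2 CPM of PSMB8 and TAP1 had a Pearson r of 0.924, that of PSMB9 and NLRC5 0.861 and that of B2M and CD47 0.756, while B2M and TAP1 had -0.237. These describe libraries that share their days, and replicate 2 of day 20 is among them. Among 11149 genes, the closest pattern to HLA-C was that of SPINT1 (r = 0.978), followed by PRSS8 (0.972) and SLC50A1 (0.966). The closest to TAP1 were MYO1E (0.975), WDPCP (0.973) and SMPDL3B (0.970), and to PSMB8 RIMS4 (0.981), PAK3 (0.964) and HHIPL1 (0.961). For B2M they were EGFR (0.933), LMNA (0.926) and NIPAL3 (0.924), and for CD47 PSD (0.890), SH3BGRL (0.880) and SERPINF1 (0.867). HLA-B was closest to LRP5 (0.944) and HLA-E to FCGRT (0.955), which encodes a class I-like receptor that also pairs with B2M.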

How the data were processed

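Bulk RNA-seq libraries of H1 cells were analysed from the deposited tables. The authors prepared stranded libraries from total RNA after removal of ribosomal RNA, mapped read pairs to GRCh38 with STAR 2.5.2b, counted reads per gene with featureCounts 1.5.1, removed ribosomal and mitochondrial genes and deposited raw counts. TPM values were deposited too, derived by the authors from the counts. Per library, a deposited sample table lists a score of RNA integrity, a fraction of uniquely mapped reads (35% to 86%) and other labels such as the lane. The settings for strand and for reads with several matches are not given in the sources used here, and the reference carries HLA alleles that can differ from those of H1. Samples were grouped by the day in their labels, and 0 columns were left out.

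Tests on counts used edgeR 4.0.16 (R 4.3.3), with TMM factors, a two-sided robust quasi-likelihood test and genes kept by filterByExpr (count of at least 10, total of at least 15). A gene with few counts on either day passes this filter through the other day, so its call and fold were favoured in advance. Each comparison was fitted on the 6 libraries of its days without covariates, the test over 5 days on all 15, and p-values were adjusted by Benjamini-Hochberg over all genes tested, with a threshold of 0.05. Comparisons that share a day share its libraries. The members and the gene lists were chosen with earlier results of these data known. All members are named, and from each list up to 4 genes past the threshold with the largest changes and at least 1 CPM on the higher day, plus fixed partners (TAP2, TAPBP, PSMB5, PSMB6, PSMB7, PSMB10, SIRPA, CIITA); other list genes are named where a count is spelled out, and were chosen after their values were seen. Of the lists, 2 genes are not reported here. Ratios were taken from TPM within a library. Symbols and coordinates come from GENCODE v44. Depth of 11990302 to 33469703 counts leaves genes with under 20 counts per library, such as PSMB9 and NLRC5 on days 9 and 11, with wide errors, and intervals cover counting error only.

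Alternatives were DESeq2 1.42.0, other size factors, no filter on low counts, all 15 libraries in one fit, limma 3.58.1 on log2 TPM with a pseudocount of 1 or 0.1, removal of the 20 most counted genes, plate or lane as a block, and each replicate left out. Shares of all genes are those of the main fits and are not given for the alternatives. The share of all genes whose replicates do not overlap is not given either. Scripts were tested on simulated data. Exact intervals used scipy 1.17.1 in Python 3.11.15.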

Additional observations from a re-analysis of the deposited data

How the results depend on the processing

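Of 755 recomputed values of single genes, 674 kept direction and side of the threshold, 17 passed it newly, 23 no longer passed it and 41 changed sign, none of these a value that had passed. Genes called from day 4 to day 9 fell from 6 to 3 with all 15 libraries in one fit. From day 9 to day 11, where 0 were called, DESeq2, no filter on low counts and the replicate block by plate each gave 2, B2M and CD47. From day 11 to day 20, 3 were called by DESeq2 and with all 15 libraries in one fit. The other counts stayed within 1.5 times, and the cause of these differences was not tested. The labels do not say what a plate number marks, and days 9 and 11 share plates 2 and 6 (r of the paired deviations 0.107 and 0.321), so the blocked values stand here only: B2M 0.86 and CD47 0.63 on day 11 against day 9. Libraries of one lane deviated with r from -0.446 to 0.321.

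Values that had not passed changed sign as follows (log2 fold changes). For PSMB8, day 4 against day 0 gave 0.016 without the filter, 0.0069 in one fit, and 0.019 and 0.018 by limma. HLA-E gave 0.035 and 0.035 by limma and 0.069 with the plate as a block on day 11 against day 9; on day 20 against day 11 it gave -0.13 and -0.14 by limma and -0.16 with lane as a block; on day 11 against day 0 it gave 0.0063 without the filter and 0.12 and 0.12 by limma; and on day 20 against day 0 it gave -0.0072 and -0.019 by limma. HLA-C on day 20 against day 11 gave 0.067 with the plate as a block. With each replicate left out in turn, day 4 against day 0 ranged from -0.12 to 0.13 for HLA-B, from -0.049 to 0.20 for HLA-C, from -0.29 to 0.17 for PSMB8 and from -0.053 to 0.11 for CD47. HLA-E ranged from -0.19 to 0.21 on day 11 against day 9, from -0.19 to 0.89 on day 20 against day 11, from -0.25 to 0.16 on day 11 against day 0 and from -0.23 to 0.85 on day 20 against day 0. On day 20 against day 11, HLA-C ranged from -0.50 to 0.40 and CD47 from -0.063 to 0.64, and on day 20 against day 0, PSMB9 from -0.50 to 1.29 and NLRC5 from -0.053 to 1.97. Scaling by library size alone moved the median of all genes by over 0.1 only on day 20 against day 0 (0.230 against 0.106), with B2M higher and TAP1 and PSMB8 lower as before.

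Groups of 3 limit these comparisons to large or tight differences, and low counts limit PSMB9 and NLRC5 after day 4.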
